A study of Homo sapiens with 8 samples.

Results

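TAZ binding around 7 genes of laminin-332 and the hemidesmosome was followed through the induction of an activated TAZ. The genes were LAMA3, LAMB3, COL17A1, ITGA6, ITGB4, DST and PLEC. A peak belonged to them when its summit lay within 100 kb of a GENCODE transcription start site (TSS) of these genes, and it was a promoter peak when the summit lay within 3 kb of such a TSS and a distal peak otherwise. By this rule 11 of 2431 peaks without doxycycline (Dox) belonged to the 7 genes, as did 7 of 2469 peaks after 24 h of Dox, 31 of 11767 after 48 h and 91 of 38667 after 72 h. Distance alone assigned the peaks, which says nothing of the gene that a bound site acts on.

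The cells were MCF10A, human mammary epithelial cells that are not transformed, given TAZ-4SA, a TAZ protein on which the Hippo kinases act less, under Dox-inducible control. The groups were cells left without Dox and cells given 0.05 µg/ml Dox for 24, 48 or 72 h, all of them with the inducible construct. A TAZ library and an IgG library were made for each group, and each group has 1 peak list. ChIP-seq sequences DNA recovered with a bound protein, the antibody does not tell endogenous from induced TAZ, and without replicates every difference below lies between single libraries and has no test. RNA and protein were not analysed here, so the lists show where TAZ was found and not whether a gene was expressed, and the sources used here do not say whether the line was a single clone.

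Laminin-332 is the main laminin of the basement membrane under stratified and mammary basal epithelium. Its α3 and β3 chains come from LAMA3 and LAMB3. The integrin of the α6 chain (ITGA6) and the β4 chain (ITGB4) binds it from the cell, and the β4 chain is the part that nucleates the hemidesmosome. Collagen XVII (COL17A1) is a transmembrane protein of the same junction, and the plakins plectin (PLEC) and dystonin (DST, of which the epithelial form is BPAG1e) tie it to keratin filaments. TAZ has no DNA-binding domain and reaches DNA mainly through TEAD factors, often at sites shared with AP-1 factors.

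The sequences below were chosen because they carry the binding described for LAMA3, LAMB3 and ITGA6. Capitals mark the TEAD consensus (ACATTCC or GCATTCC) and the AP-1 consensus (TGACTCA or TGAGTCA) on either strand, so that a TEAD match on the minus strand reads GGAATGT or GGAATGC. Each was read from hg38 on the plus strand, along which the positions of motifs before and after a summit are also given, and all but the last extend 100 bp to each side of the summit of the 72 h peak. The site before LAMB3 is shown although it holds neither consensus, since it was called in all 4 lists. The last is the stretch of 260 bp before an internal start of LAMA3.
LAMA3 intron, chr18:23845100-23845300: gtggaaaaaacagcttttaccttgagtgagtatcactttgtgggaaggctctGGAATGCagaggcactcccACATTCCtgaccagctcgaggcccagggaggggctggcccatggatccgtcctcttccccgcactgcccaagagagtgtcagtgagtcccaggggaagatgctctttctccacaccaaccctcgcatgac
LAMB3 promoter, chr1:209653088-209653288: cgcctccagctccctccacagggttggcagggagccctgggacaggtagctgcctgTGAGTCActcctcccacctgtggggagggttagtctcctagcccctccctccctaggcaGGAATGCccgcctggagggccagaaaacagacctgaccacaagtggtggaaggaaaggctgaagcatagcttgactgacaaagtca
Site before LAMB3, chr1:209657146-209657346: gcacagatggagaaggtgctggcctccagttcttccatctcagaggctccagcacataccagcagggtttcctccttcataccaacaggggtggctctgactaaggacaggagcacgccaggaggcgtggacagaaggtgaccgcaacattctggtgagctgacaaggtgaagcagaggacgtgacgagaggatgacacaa
ITGA6 intron, site at 72 h, chr2:172439368-172439568: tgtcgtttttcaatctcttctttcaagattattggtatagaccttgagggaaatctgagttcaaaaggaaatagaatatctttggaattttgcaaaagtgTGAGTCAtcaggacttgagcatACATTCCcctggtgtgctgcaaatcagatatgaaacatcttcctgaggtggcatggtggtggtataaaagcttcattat
Internal start of LAMA3, chr18:23872760-23873019: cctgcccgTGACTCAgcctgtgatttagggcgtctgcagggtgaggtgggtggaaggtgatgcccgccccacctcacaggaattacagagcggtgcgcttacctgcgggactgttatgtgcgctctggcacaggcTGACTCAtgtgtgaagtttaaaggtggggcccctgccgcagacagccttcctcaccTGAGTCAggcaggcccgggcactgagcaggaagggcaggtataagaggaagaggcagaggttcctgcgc

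Across the 4 lists the background coverage, which scales with the reads of a library, was 1.49 (no Dox), 1.42 (24 h), 2.84 (48 h) and 2.01 (72 h) fragments. The deepest list was therefore the one at 48 h, and the rise in peaks between 48 and 72 h did not go with a higher background. When pileup and background were brought to the lowest coverage and a common threshold applied, 11, 7, 28 and 85 of the peaks of the 7 genes were kept in the order of the times. When a peak also had to have its nearest protein-coding TSS in 1 of the 7 genes, 6, 4, 24 and 51 were kept. Fold enrichment below is the authors' ratio of ChIP signal at a peak to its local background, and pileup is the number of ChIP fragments over the summit, with an exact Poisson interval that covers counting error only.

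Fewer of the 7 genes had a promoter peak at 24 h than without Dox, and all 7 had one at 72 h. Any peak within 100 kb was present for 4 of the 7 genes without Dox (34.3% of 20033 protein-coding genes had one), for 5 at 24 h (21.6% of all genes), and for all 7 at 48 h (56.4%) and at 72 h (90.1%). Promoter peaks were present for 3 of the 7 without Dox (9.40% of all genes), namely LAMB3, ITGB4 and PLEC. PLEC was the 1 gene with a promoter peak at 24 h (2.55%), and with promoters of 1 kb there was none in that list. At 48 h there were 5 (9.09%), LAMA3, LAMB3, COL17A1, DST and PLEC, and at 72 h all 7 had one (58.4%). Distal peaks were present for 3 of the 7 genes without Dox (28.5%), 4 at 24 h (19.9%), and all 7 at 48 h (54.2%) and at 72 h (87.7%).

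These genes are long or have many starts, from 5 TSS in LAMB3 to 39 in DST, and more starts make a larger target. Among the 11360 protein-coding genes with at least 5 TSS, a promoter peak was present for 12.3% (no Dox), 3.57% (24 h), 12.5% (48 h) and 73.3% (72 h). With the canonical TSS alone, 3, 1, 2 and 6 of the 7 genes had a peak within 3 kb in the order of the times, where 8.13%, 1.39%, 4.71% and 53.3% of all genes did. The count at 48 h thus depended on internal starts, and LAMB3 and PLEC were the 2 genes bound at the canonical start in that list. Peak density per 100 kb of searched sequence had a mean over the 7 genes of 0.637 (no Dox), 0.388 (24 h), 1.36 (48 h) and 3.99 (72 h), while the mean over all genes was 0.229, 0.116, 0.519 and 2.42.

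**Figure D1:**
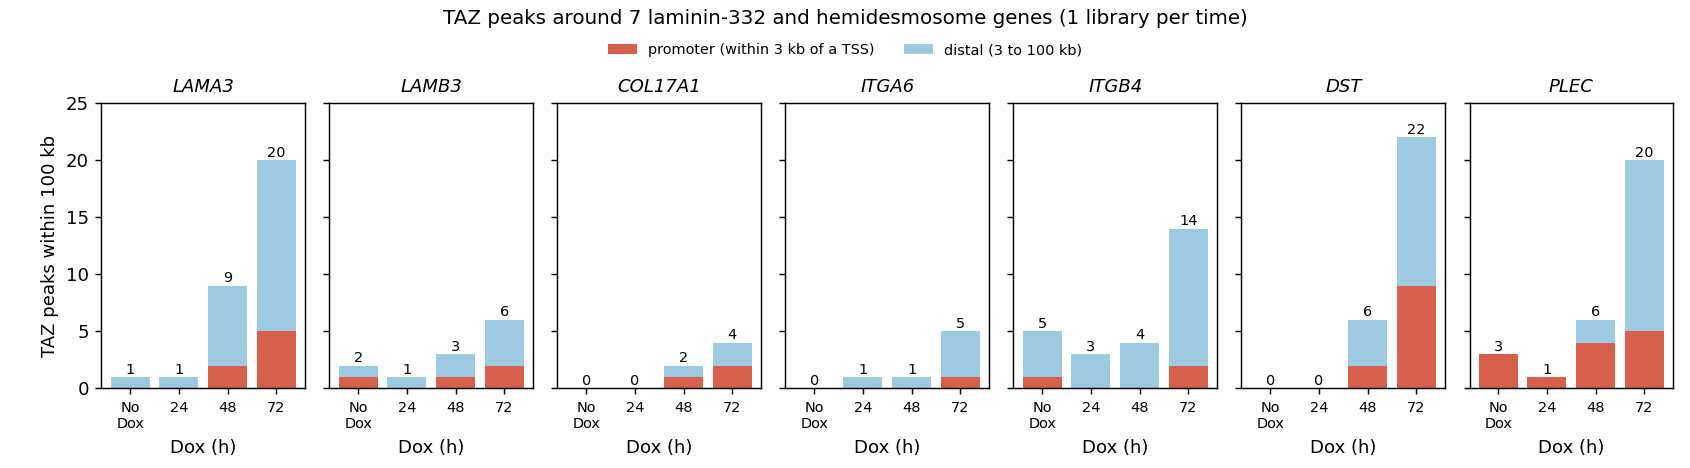
Bars give the number of TAZ peaks (y axis) whose summit lay within 100 kb of a TSS of each gene, in cells without Dox and after 24, 48 and 72 h (x axis), split into promoter and distal peaks; each bar is 1 library. DST and COL17A1 had 0 peaks before 48 h, and ITGB4 had 5 (no Dox), 3 (24 h), 4 (48 h) and 14 (72 h) peaks.

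**Figure D2:**
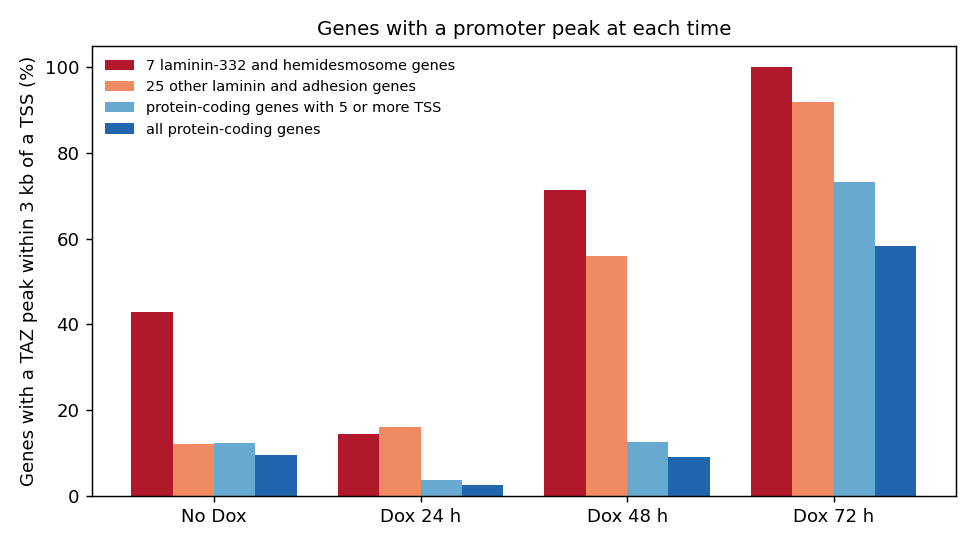
Bars give the share of genes (y axis, percent) with a TAZ summit within 3 kb of a TSS at each time (x axis) for the 7 genes, for 25 other laminin and adhesion genes, for protein-coding genes with 5 or more TSS and for all protein-coding genes. At 72 h the shares stood at 7 of 7 genes, 92.0%, 73.3% and 58.4%.

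LAMA3, the gene of the laminin α3 chain, lies on the plus strand at chr18:23689453-23956222 (hg38). It has a long form from the first start and a short form, the one found in laminin-332, from a start inside the gene. LAMA3 had 1 (no Dox), 1 (24 h), 9 (48 h) and 20 (72 h) peaks, and most of these lay in its own introns. The only peak without Dox lay 64581 bp from the nearest LAMA3 start, in the promoter of the neighbour TTC39C, with a fold enrichment of 5.64. The 72 h peak that overlapped it had 7.21 at a different summit, 65578 bp from that start.

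Within the LAMA3 introns TAZ was first called at 24 h, at chr18:23890458-23891404, 5992 bp after the nearest annotated start. Fold enrichment there was 7.44 (24 h), 7.34 (48 h) and 7.25 (72 h), with pileups of 17, 29 and 32. This site was nearly level through the 3 Dox times, and the scaled pileup at 72 h was 1.33 times that at 24 h (0.717 to 2.56), an interval that includes no change. A TEAD consensus lay 47 bp from its summit.

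The strongest LAMA3 site behaved otherwise. At chr18:23844751-23845794, in an intron 6404 bp after the nearest annotated start, fold enrichment was 31.2 at 72 h, against 6.44 at 48 h, and the pileup was 139 (117 to 164) at 72 h, against 40 (28.6 to 54.5) at 48 h. Neither 24 h nor the cells without Dox had a peak there. Of all sites of the 7 genes it was 1 of only 2 with more than a single TEAD consensus near the summit, 1 on each strand, centred 45 and 26 bp before it, as the printed sequence shows. The other was an intron site of DST with 7.58 at 72 h, against 5.47 at 48 h.

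A start inside LAMA3 had a peak at 48 and 72 h. The 72 h peak at chr18:23872291-23873205 had its summit 225 bp before the TSS at chr18:23873020, the start that the RefSeq promoter table lists for the gene, and 183342 bp after the canonical start. Its fold enrichment was 8.02 at 72 h, against 3.19 at 48 h. The 48 h peak was lost with the depth scaling and with a −log10 q of at least 5, so that under either alternative this start was called at 72 h alone. The printed 260 bp hold 3 AP-1 consensus sites, centred 249, 122 and 66 bp before the start, and no TEAD consensus. For scale, 4.95% of 35116 RefSeq promoters of 300 bases hold an AP-1 consensus, and 0.222% hold at least 2, as the RefSeq window of LAMA3 does. The canonical LAMA3 start had a summit 2 bp away at 72 h alone, with a fold enrichment of 4.86.

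Other LAMA3 promoter peaks lay at internal starts. That with the summit 306 bp after its start had 7.90 at 72 h, against 6.08 at 48 h, and those 460 and 1216 bp after theirs were called at 72 h alone with 6.99 and 9.80. Of the remaining distal sites, the strongest lay in the first part of the gene, 36319 bp after the nearest start, with 17.3 at 72 h, against 8.17 at 48 h. The next, at the TTC39C start 42892 bp from the nearest LAMA3 start, had 12.3 at 72 h, against 3.66 at 48 h. As deposited, 8 LAMA3 sites were shared by 48 and 72 h alone, and in each of them the fold enrichment at 72 h was the higher.

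LAMB3, the gene of the β3 chain, lies on the minus strand at chr1:209614870-209652425 (hg38). It had 2 (no Dox), 1 (24 h), 3 (48 h) and 6 (72 h) peaks. The site at chr1:209656637-209658637, 4821 bp before the canonical start and outside protein-coding genes, was called in all 4 lists. Its fold enrichment was 3.67 (no Dox), 9.13 (24 h), 13.6 (48 h) and 26.6 (72 h). The pileup was 27 (no Dox, 17.8 to 39.3), 59 (24 h, 44.9 to 76.1), 143 (48 h, 121 to 168) and 309 (72 h, 276 to 345). It was the 1 site of the 7 genes present without Dox whose fold enrichment was higher at 24 h, 2.49 times that without Dox, and the values were higher again at 48 and 72 h. Scaled for depth, the pileup at 48 h was 1.21 times that at 24 h (0.887 to 1.67), within counting error, and that at 72 h was 3.06 times that at 48 h (2.50 to 3.76). The 100 bp to each side of its summit hold no TEAD and no AP-1 consensus by the letters searched.

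The LAMB3 promoter gave a different order of times. Its peak at chr1:209651300-209653660, with the summit 763 bp before the canonical start, had a fold enrichment of 4.07 (no Dox), 3.28 (48 h) and 12.8 (72 h), and no peak at 24 h. Pileups were 23, 48 and 160, and the scaled pileup at 72 h was 5.17 times that without Dox (3.33 to 8.39). The scaled pileup at 48 h was 1.09 times that without Dox (0.653 to 1.89), so the promoter did not differ there beyond counting error. The printed promoter sequence holds an AP-1 consensus 41 bp before the summit and a TEAD consensus 18 bp after it.

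Around LAMB3 the other peaks were later. A promoter peak inside the gene, 1573 bp after an internal start, was called at 72 h alone with 6.51. A distal site 18258 bp before the gene had 9.88 at 72 h, against 5.05 at 48 h. The site at the promoter of HSD11B1, 36477 bp away, had 4.81 at 72 h, and a weaker one lay at the promoter of G0S2 with 3.41.

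COL17A1, the gene of collagen XVII, lies on the minus strand at chr10:104031286-104085880 (hg38) and had the fewest peaks of the 7 at 72 h. Its counts were 0 (no Dox), 0 (24 h), 2 (48 h) and 4 (72 h). No peak lay within 3 kb of its canonical start in any list. The nearest was an intron peak 3689 bp after that start, counted as a promoter peak because it lay 1518 bp before another start, with a fold enrichment of 6.22 at 72 h, against 4.09 at 48 h. The scaled pileup there at 72 h was 1.19 times that at 48 h (0.634 to 2.22), within counting error.

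A site 8070 bp before COL17A1 was the 1 site of the 92 called at 48 h alone, with a fold enrichment of 5.20 and a pileup of 19. The other promoter peak, 1239 bp after an internal start, was called at 72 h alone with 9.24 and has an AP-1 consensus 18 bp before its summit. Both remaining distal peaks lay at starts of neighbours at 72 h, SFR1 with 6.80 and SLK with 3.32. Per 100 kb, 41.1% of all genes had a lower peak density than COL17A1 at 72 h.

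ITGA6, the integrin α6 gene, lies on the plus strand at chr2:172427354-172506459 (hg38). It had 0 (no Dox), 1 (24 h), 1 (48 h) and 5 (72 h) peaks. The peak at chr2:172448861-172450474, in an intron 22400 bp after the canonical start, was the only ITGA6 site before 72 h. Its fold enrichment was 9.64 at 24 h, the highest of the 7 genes in that list, 8.07 at 48 h and 19.6 at 72 h. Pileups there were 28 (24 h), 46 (48 h) and 88 (72 h), and the scaled pileup at 48 h was 0.819 times that at 24 h (0.501 to 1.36), while that at 72 h was 2.22 times that at 24 h (1.44 to 3.53).

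Both consensus sequences lie close to the summit of another ITGA6 site. This intron site, 11882 bp after the canonical start and called at 72 h alone with 8.94, has the AP-1 consensus 3 bp and the TEAD consensus 25 bp after its summit. The ITGA6 promoter itself, 12 bp from the canonical start and in exon sequence, had a peak at 72 h alone with 4.27, and the RefSeq promoters of ITGA6 hold neither consensus. A further distal peak, with 5.45, lay at the start of PDK1.

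ITGB4, the integrin β4 gene, lies on the plus strand at chr17:75721328-75757818 (hg38) and had the most peaks without Dox. It had 5 (no Dox), 3 (24 h), 4 (48 h) and 14 (72 h) peaks. All but 2 of its 14 sites were distal, and none of the distal ones lay inside ITGB4. At the promoter, 48 bp from the canonical start, fold enrichment was 10.6 at 72 h, against 6.96 without Dox, with pileups of 63 (48.4 to 80.6) at 72 h and 23 (14.6 to 34.5) without Dox. No peak was called there at 24 or 48 h. A TEAD consensus lay 32 bp and an AP-1 consensus 17 bp before this summit. The other promoter peak, 1245 bp before an internal start, was called at 72 h alone with 4.19.

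The most lasting ITGB4 site lay inside the neighbour SAP30BP at chr17:75684475-75685883, 36136 bp before the first ITGB4 start. Its fold enrichment was 17.4 without Dox, the highest of the 7 genes in that list, then 8.78 (24 h), 10.2 (48 h) and 31.5 (72 h). The scaled pileup at 24 h was 0.777 times that without Dox (0.484 to 1.24) and that at 48 h 0.980 times (0.678 to 1.43), both within counting error. At 72 h the scaled pileup was 3.51 times that without Dox (2.54 to 4.93). No TEAD or AP-1 consensus lay at this summit.

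A site 27605 bp before ITGB4, within 3 kb of a SAP30BP start, had a fold enrichment of 6.02 (24 h), 10.0 (48 h) and 21.3 (72 h). On the other side, at chr17:75784117-75785412 between the starts of H3-3B and UNK, it was 7.28 (no Dox), 6.85 (24 h) and 34.6 (72 h), with no peak at 48 h. Why none was called there at 48 h was not tested. At the start of UNC13D it was 4.16 (no Dox), 4.99 (48 h) and 15.2 (72 h), at summits 88298, 87869 and 87841 bp from the nearest ITGB4 start. These sites lie in promoters of other genes. Of the distal peaks of all 7 genes, 4 of 6 did so without Dox, some of them at the sites just named. At the Dox times the counts were 2 of 6 (24 h), 4 of 21 (48 h) and 26 of 65 (72 h). The share over all distal peaks is not given here, so these counts cannot be read as particular to the 7 genes.

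DST, the dystonin gene, lies on the minus strand at chr6:56457987-56954830 (hg38). It had no peak without Dox or at 24 h, 6 at 48 h and 22 at 72 h. All but 2 of its distal sites lay in its own introns. The strongest, at chr6:56807254-56809936, had a fold enrichment of 31.2 at 72 h, against 9.74 at 48 h, and a pileup of 139 (117 to 164) at 72 h, against 61 (46.7 to 78.4) at 48 h. At 48 h a weaker peak of 5.15 stood beside it, and the 72 h peak overlapped both. No TEAD or AP-1 consensus lay at this summit. The next distal sites were those with 11.2 at 72 h, against 8.65 at 48 h, and 10.3 at 72 h alone.

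Promoter peaks of DST were spread over 9 sites, and only 2 were called before 72 h. That with the summit 21 bp before an internal start had a fold enrichment of 6.33 at 72 h, against 7.81 at 48 h, and a pileup of 20 at 72 h, against 29 at 48 h. The ratio of 0.811 was the lowest of the 30 such ratios of the 7 genes, and the scaled pileup ratio of 0.978 (0.524 to 1.79) included no change. The peak 460 bp before another internal start had 12.2 at 72 h, against 7.17 at 48 h. The canonical DST start was bound at 72 h alone with 8.84, at a summit 507 bp before DST and 35 bp from the start of BEND6, so that the peak belongs to both promoters by distance. The other 6 promoter peaks had between 3.21 and 7.92 and were called at 72 h alone.

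PLEC, the plectin gene, lies on the minus strand at chr8:143915153-143976734 (hg38) and has 14 TSS, which start its isoforms. It had 3 (no Dox), 1 (24 h), 6 (48 h) and 20 (72 h) peaks. Without Dox all 3 were promoter peaks, with fold enrichments of 3.42, 7.54 and 5.36. The middle one, 993 bp before the canonical start, was also called at 24 h with 6.40 and at 48 h with 9.58, beside a second 48 h peak with 7.68. At 72 h a single interval of 10272 bp at chr8:143933721-143943992 covered all of them, and it was the widest of the 38667 peaks in that list. Its summit, 992 bp before the canonical start, had a fold enrichment of 54.7 and a pileup of 410 (371 to 452), the highest of the 7 genes.

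Summits of this site lay close together at the 4 times, and pileups there were 41 (no Dox, 29.4 to 55.6), 43 (24 h, 31.1 to 57.9), 137 (48 h, 115 to 162) and 410 (72 h). The scaled pileup at 24 h was 1.10 times that without Dox (0.702 to 1.73), and that at 72 h was 7.44 times that without Dox (5.39 to 10.5). The value at 24 h was thus within counting error of that without Dox, and those at 48 and 72 h were above it.

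A PLEC promoter peak 996 bp after an internal start had a fold enrichment of 29.4 at 72 h, against 6.86 at 48 h, and its interval at 72 h spanned 5509 bp. At the promoter peak 2255 bp after the next start it was 14.0 at 72 h, against 6.89 at 48 h. The promoter peaks 2608 and 84 bp after further starts were called at 72 h alone with 5.04 and 4.75. Of the distal sites, an intron site 6770 bp from the nearest start had 13.3 at 72 h, against 6.23 at 48 h, and 2 sites at 72 h alone had 18.1 inside PARP10 and 11.2 at the promoter of EPPK1, the gene of another plakin repeat protein. Per 100 kb, 99.0% of all genes had a lower peak density than PLEC at 72 h.

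**Figure D3:**
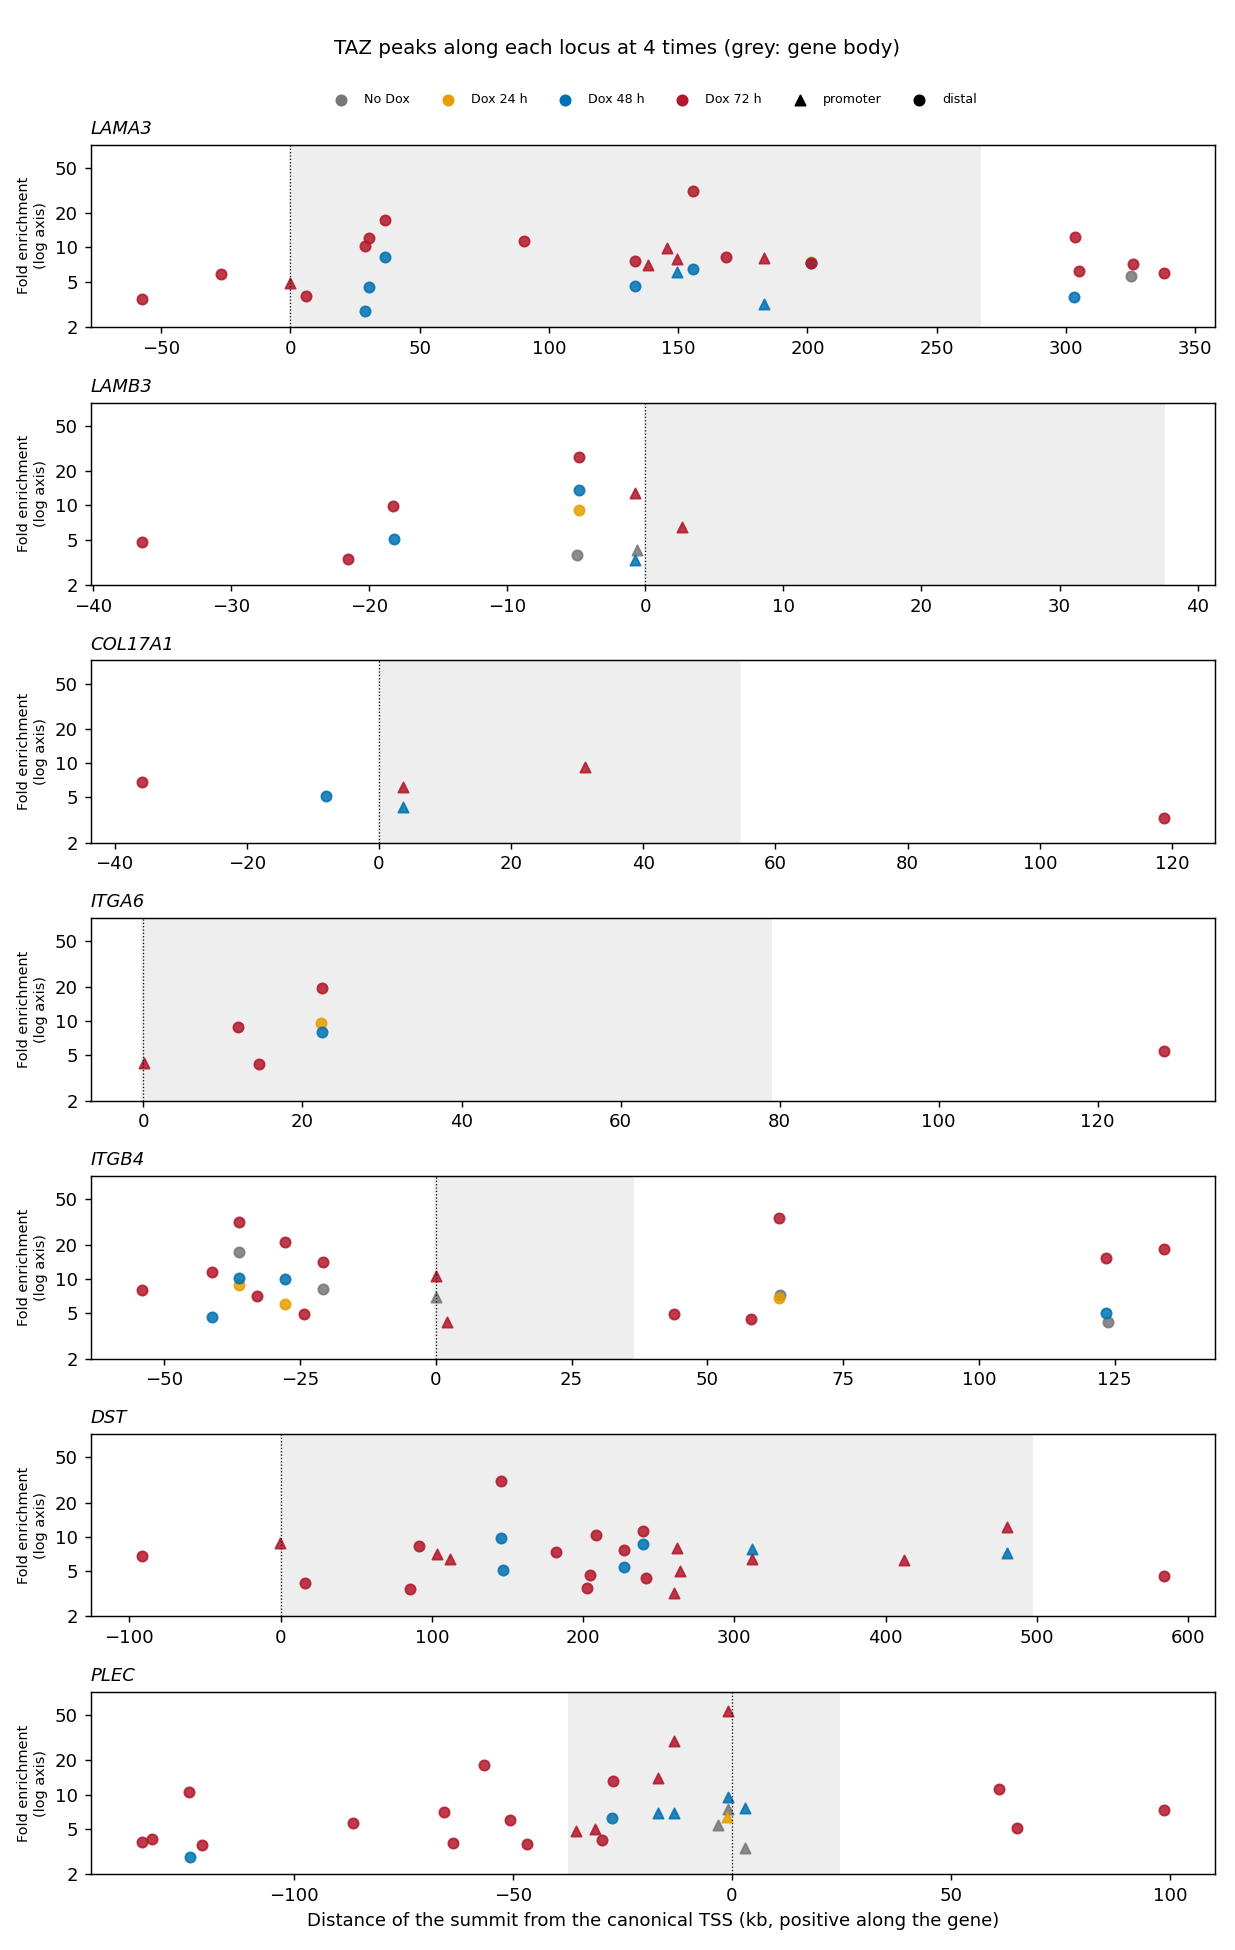
Points are TAZ peaks of the 7 genes, placed by the distance of the summit from the canonical TSS (x axis, kb, positive along the gene) and by fold enrichment (y axis, log), coloured by time, with triangles for promoter peaks and circles for distal ones; grey marks the gene body. DST and LAMA3 peaks lie mostly within the gene body, while all distal ITGB4 peaks lie outside it.

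Overlapping peaks of the 4 lists formed 92 sites, 26 promoter and 66 distal. Of these, 59 were called at 72 h alone, with a median fold enrichment of 5.45, and 20 at 48 and 72 h, with a median of 11.3 at 72 h. The 3 sites called in all 4 lists, before LAMB3, inside SAP30BP and at PLEC, had a median of 31.5 at 72 h. Sites called in more lists thus had higher values at 72 h, but passing a threshold in a weaker list itself selects strong sites.

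Every peak of the 7 genes without Dox overlapped one at 72 h, 11 of 11, where 89.3% of all peaks did. At 24 h 4 of the 11 were found again, 36.4%, where 20.1% of all peaks were. Of the 7 peaks called at 24 h, 6 had a counterpart at 48 h, 85.7%, where 92.3% of all peaks did, and the 1 not found was that between H3-3B and UNK. Of the 31 called at 48 h, 30 had a counterpart at 72 h, 96.8%, where 95.3% of all did. These counts took any overlap, and with an overlap of 50% of both peaks they were 4 of 11 at 72 h for the peaks without Dox, 2 of 7 and 18 of 31. The share of all peaks at that overlap is not given here, so the lower counts cannot be read as particular to the 7 genes. Median widths over all peaks were 574 (no Dox), 408 (24 h), 616 (48 h) and 821 bp (72 h). Seen from the later list, 3 of 7 peaks at 24 h were new against no Dox, 42.9%, where 80.2% of all peaks were new. The corresponding shares were 80.6% at 48 h against 24 h (80.7% of all peaks) and 69.2% at 72 h against 48 h (71.6%), so that the share of the 7 genes lay farthest from that of all peaks at the early step, which rests on 7 peaks.

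Fold enrichment was also compared at the sites shared by 2 lists. Between 24 h and no Dox the median ratio was 0.895 over 4 peaks, of which 1 was above 1, where the median over all shared peaks was 1.34. With pileup over background coverage that ratio was 1.08, on the other side of 1, where the median over all shared peaks was 1.44. At 48 h over 24 h it was 1.33 over 6 peaks (1.45 over all), and at 72 h over 48 h it was 2.46 over 30 peaks, of which 28 were above 1 (1.90 over all). At 72 h over no Dox the median ratio was 3.65, with a range of 1.28 to 16.0 and 11 of 11 above 1, where the median over all shared peaks was 1.86. With pileup over background coverage the median was 6.55 for the 7 genes and 2.12 over all shared peaks. These ratios share lists, and a wide later peak can stand against several earlier ones, as at PLEC. There the 3 peaks without Dox all stand against 1 peak of 10272 bp at 72 h, so the 11 ratios are not from 11 separate sites. The highest, 16.0, sets 54.7 at the summit of that peak against 3.42 at a different summit without Dox. The lowest, 1.28, at TTC39C, also compares different summits.

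**Figure D4:**
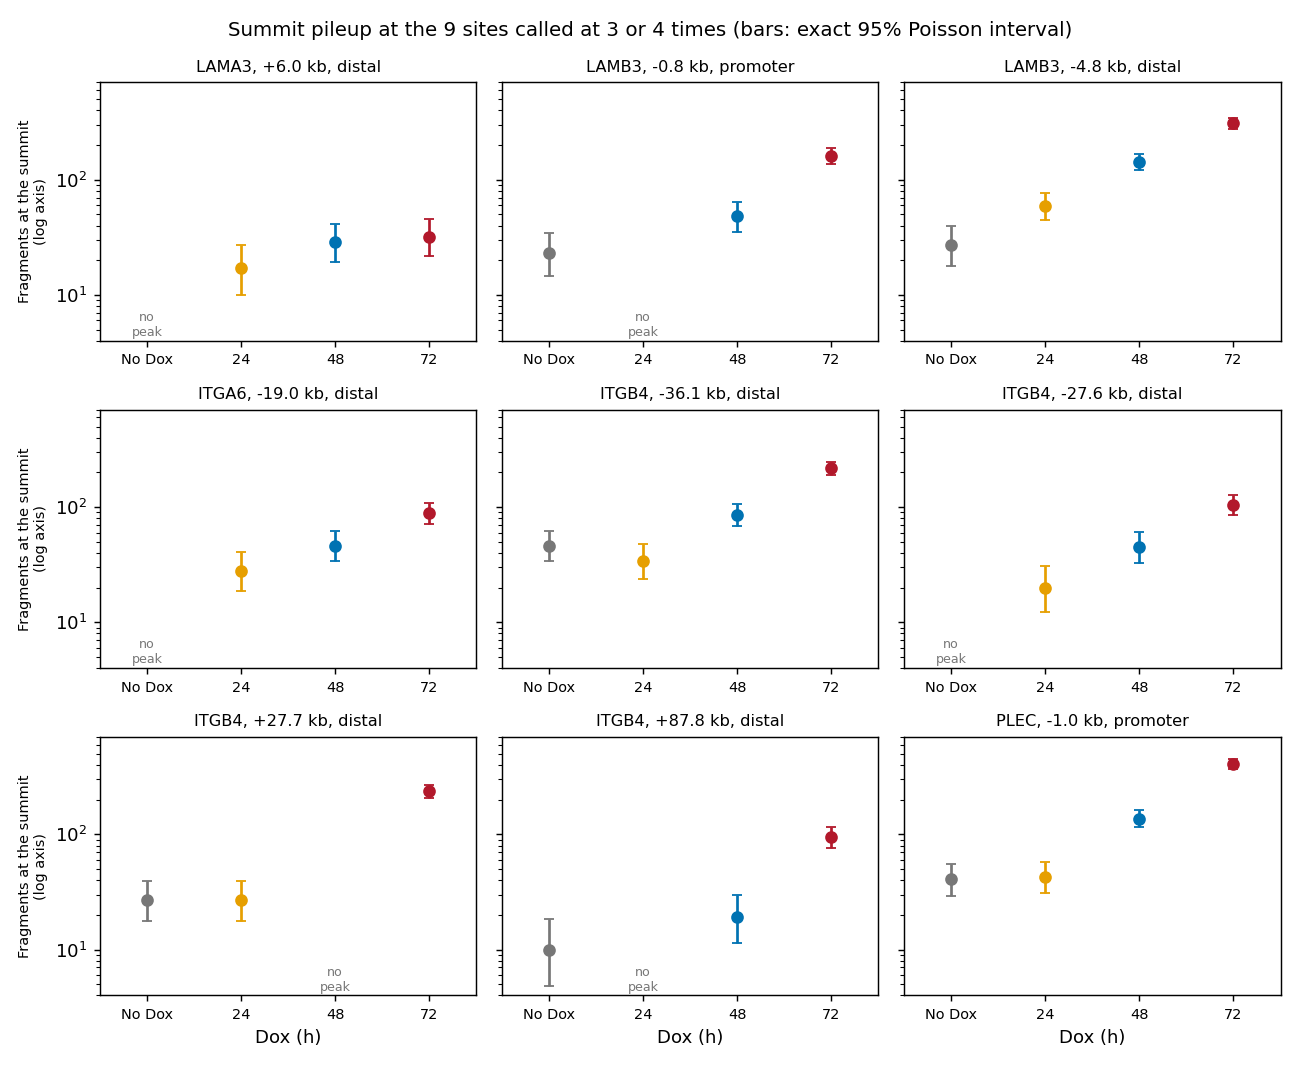
Panels show the pileup, the number of ChIP fragments over the summit (y axis, log), without Dox and at 24, 48 and 72 h (x axis) at the 9 sites called in at least 3 lists, titled by gene, distance to the nearest TSS of that gene and kind; bars are exact 95% Poisson intervals of counting error. Pileups are not scaled for depth, and in 8 of the 9 panels the 72 h interval lies above those of all other times, the exception being the LAMA3 site at 17, 29 and 32 fragments.

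The TEAD consensus was present within 100 bp of the summit in 3 of 11 peaks of the 7 genes without Dox, 27.3% (6.02 to 61.0, exact binomial interval), where 16.4% of all peaks of the list had it. At 24 h it was present in 2 of 7, 28.6% (3.67 to 71.0), where 52.2% of all peaks had it. At 48 h it was 9 of 31, 29.0% (14.2 to 48.0), where 41.8% had it, and at 72 h 21 of 91, 23.1% (14.9 to 33.1), where 27.7% had it. The share over all peaks changed with time more than that of the 7 genes, whose intervals include the share over all peaks in each list.

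The AP-1 consensus was present in 2 of 11 peaks without Dox, 18.2% (2.28 to 51.8), where 7.27% of all peaks had it. At 24 h it was 1 of 7, 14.3% (0.361 to 57.9), beside 17.3% of all peaks. At 48 h it was 9 of 31, 29.0% (14.2 to 48.0), beside 19.9%. At 72 h it was 16 of 91, 17.6% (10.4 to 27.0), beside 16.0%. Each interval included the share over all peaks of its list. The TEAD consensus was present at 6 of 26 promoter sites and at 15 of 66 distal sites. Both motifs lay together, among other sites, at the LAMB3 and ITGB4 promoters, at the ITGA6 intron site printed above and at 1 weak DST site with 3.56. The 10 RefSeq promoters that matched 5 of the 7 genes (GRCh38.p14) held no TEAD consensus, which 6.64% of all RefSeq promoters hold. With 10 promoters, finding none cannot be told from that share. An AP-1 consensus, which 4.95% of all hold, lay in a promoter of LAMA3, of LAMB3 and of DST, and in none of the others.

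A list of 25 further genes of laminins, their receptors and the basal keratin and plakin network, chosen for role, was followed in the same way. A promoter peak was present for 3 of the 25 genes without Dox, or 12.0%, and for 4 after 24 h, or 16.0%. It was present for 14 after 48 h, or 56.0%, and for 23 after 72 h, or 92.0%, beside the shares of all genes given above. Scaled to the lowest coverage with a common threshold, the count was 10 at 48 h and 23 at 72 h. The list was not matched to all genes by number of TSS. At 24 h the 4 were LAMC1, the laminin γ1 chain, ITGA3, the α3 chain of the other laminin-332 integrin, KRT5, a basal keratin, and MACF1, a plakin. Fold enrichment at LAMC1 was 8.82 (no Dox), 17.2 (24 h), 19.9 (48 h) and 47.3 (72 h). KRT5 had 4.18 (no Dox), 5.47 (24 h), 10.0 (48 h) and 34.6 (72 h). ITGA3 had 5.93 (24 h), 8.67 (48 h) and 36.4 (72 h). MACF1 had 13.5 at 72 h, against 5.94 at 24 h, with no promoter peak at 48 h.

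Among the laminin chains LAMA5, with 26.5 at 72 h, against 6.49 at 48 h, and LAMB2, with 24.2 at 72 h, against 4.49 at 48 h, followed LAMC1. ITGB1, the β1 partner of ITGA3, had 4.37 (no Dox), 4.78 (48 h) and 28.0 (72 h). Plakins of the desmosome and cornified envelope, DSP, PPL and EVPL, had promoter peaks at 72 h alone, with 13.2, 10.2 and 4.65, and KRT14, the partner of KRT5, had 4.94 at 72 h alone. NID1 and NID2, the nidogens that link laminin to collagen IV, had no promoter peak in any list.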

How the data were processed

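The libraries were grouped by their titles into TAZ and IgG libraries without Dox and after 24, 48 and 72 h, 8 libraries in all, and 4 peak lists were used. GEO's labels tie each list to a TAZ library and to its IgG library, and the use of IgG as the control for peak calling is not stated in the sources used here. As stated in the study's methods and the submitters' processing notes, the authors mapped reads to hg38 with BWA and called peaks by MACS2 with a false discovery rate of 0.01. The tool versions used were not stated in these sources. The deposited lists hold, for each peak, a fold enrichment over local background (a ratio, with a pseudocount of 1 for signal and background), the −log10 p-value, the −log10 q-value and the summit offset, all computed by the authors. The lists give no read totals. The summit pileup and local background were solved from fold enrichment and p-value together, which gave back 100% of the −log10 p-values to within 0.003. As its coverage, each list was given its lowest background, and a scaled pileup ratio divides the pileups by it, with an exact 95% conditional binomial interval.

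Coordinates are 1-based on hg38 and TSS are those of all transcripts in GENCODE 44. Sites are merged intervals of the 4 lists that overlap by at least 1 bp, and the strongest peak of a list stands for a site. Motifs were searched to 100 bp on each side of the summit in the hg38 sequence, on both strands, with peaks on chromosomes 1 to 22, X and Y as background. Promoter sequences came from the RefSeq table (250 bases before to 50 after a start). At the edge of the 100 kb window, the outermost peaks counted lay 95250 to 98630 bp from a TSS, with 4.04, 3.84 and 7.30 (PLEC) and 18.4 (ITGB4), and the nearest peaks left out lay 100413 and 100481 bp from LAMA3, with 11.1 (72 h) and 7.36 (48 h), and 101749 bp from PLEC, with 12.0 (no Dox).

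The 7 genes and the list of 25 others were chosen with earlier results of these data known. Named were all 7 genes with each promoter site, the 3 strongest distal sites of each gene, the distal sites called in at least 3 lists, the genes whose promoters hold a named distal site, genes of the list of 25, and the 5 genes with the most similar profile. Weaker sites were named singly where a comparison turned on them, after their values were seen. Python 3.11.15, numpy 2.4.6, scipy 1.17.1 and pysam 0.24.0 were used, and the scripts were tested on simulated data. Alternatives were another window, promoter width, TSS set, threshold, depth scaling, overlap and motif window. The sequence at 1 ITGA6 site is not reported here.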

Additional observations from a re-analysis of the deposited data

How the results depend on the processing

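Of 80 alternative values, 64 stayed within 1.5 times the count, or within the spread, of the value reported. Where peaks were kept only if a gene of the 7 had the nearest protein-coding TSS, they numbered 6 (no Dox), 4 (24 h) and 51 (72 h). With promoters of 1 kb, 0 of the 7 genes had a promoter peak at 24 h, and 1 of the 25 other genes had one without Dox and 1 at 24 h, and with the canonical TSS alone 2 of the 7 had one at 48 h. Alternatives for the list of 25 and the canonical TSS were added after seeing the data. With an overlap of 50% of both peaks, 2 of 7 peaks at 24 h were found again at 48 h, 18 of 31 at 48 h were found again at 72 h, and 4 of 11 without Dox were found again at 72 h, where peaks were wider. The share of all peaks at that overlap is not given. With pileup over background coverage in place of fold enrichment, the median ratios were 1.08 (24 h over no Dox), 1.17 (48 h over 24 h), 2.88 (72 h over 48 h) and 6.55 (72 h over no Dox), so that the 24 h step changed side of 1. Over all shared peaks the medians of this measure were 1.44, 1.42, 2.26 and 2.12 in the same order. Over whole peaks at 72 h, 38.5% held the TEAD and 37.4% the AP-1 consensus. Whole peaks hold more sequence than the stretch around a summit. The share of all peaks in that search is not given, so these values cannot be read as particular to the 7 genes. No paired analysis was possible because each condition had 1 TAZ library and no result came from a test. A missing peak says that no peak passed the threshold at that depth and not that TAZ was absent. Coverage was lowest at 24 h, 1.42, beside 1.49 without Dox. Scaling between values so close changes little, and all 11 peaks without Dox were kept. The cause of the lower count at 24 h was not tested. With 1 library for each time, a difference in ChIP recovery cannot be told apart from time.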

Other observations

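Outside the named lists, the 5 protein-coding genes whose profile of summed fold enrichment was nearest to the median of the 7 genes were RPL3, a ribosomal protein gene, DCAKD, EZR, the gene of the membrane and actin linker ezrin, CEACAM19 and VAC14. The profile was log2(1 + summed fold enrichment within 100 kb) in the 4 lists, and the median of the 7 genes was 2.73 (no Dox), 3.08 (24 h), 4.95 (48 h) and 7.42 (72 h). Euclidean distances to it over the 4 lists were 0.09 for RPL3, 0.17 for DCAKD, 0.25 for EZR, 0.27 for CEACAM19 and 0.37 for VAC14. Of the 7 genes, LAMA3 was nearest to their median at 0.64 and COL17A1 farthest at 5.16.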
